A study of Caenorhabditis elegans with 7 samples.

Results

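The genes described here are the ligands, receptors and Smad proteins of the TGF-beta pathways of Caenorhabditis elegans, 10 genes of the 17118 that the array measures by name. They were chosen by name, as the known components of the DBL-1/Sma branch (dbl-1, sma-6, sma-2, sma-3 and sma-4), of the DAF-7 dauer branch (daf-7, daf-1, daf-8 and daf-3) and of the receptor gene used by both (daf-4). All 10 were found, on 16 of the 22548 probe sets tested. A probe set is a group of short probes against 1 transcript or a few related ones, and 6 of the genes had 2 probe sets while 4 had 1.

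Whole worms of the wild-type strain N2 (Bristol) were grown from the egg at 20°C for 3 days, to the young adult stage, on NGM, the standard agar medium for worms, or on NGM holding 1 µg/mL of 13L, a synthetic peptide whose sequence was identified in a hydrolysed cocoa by-product. Both groups carry no transgene and no mutation. There were 4 NGM arrays (SL1, SL5, SL9 and SL69, named by their titles) and 3 arrays of 13L (SL4, SL8 and SL12), with 1 Affymetrix C. elegans Genome Array each, and a further 13L replicate that the methods speak of was not analysed here. As RNA came from whole worms, a lower value for a gene of 1 cell type has 2 readings that cannot be told apart. Such cells can give a smaller share of all RNA, or hold less RNA of that gene per cell.

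In both branches a secreted ligand brings together a type I and a type II receptor kinase, and the type I receptor then phosphorylates Smad proteins, which enter the nucleus and change transcription. The DBL-1 branch resembles BMP signalling and is known for setting body size and for patterning the male tail, with the ligand made mostly by neurons and the receptors and Smads acting in the hypodermis, intestine and pharynx. The DAF-7 branch is known for the choice between reproductive growth and the dauer larva, a stress-resistant alternative stage. Its ligand comes from a pair of sensory neurons, and its co-Smad DAF-3 is opposed, rather than used, by the active receptors.

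No gene of either branch passed the test of 13L against NGM. At an adjusted p under 0.05 from limma, 0 of the 16 probe sets passed, against 0% of all 22548 tested. At an unadjusted p under 0.05 there were also 0 of 16, against 5.11% of all probe sets, and on 0 of 16 did the groups not overlap, against 6.08% of all. The lowest unadjusted p among the members was 0.135 (limma, adjusted p = 0.944), for the brighter probe set of daf-3. Differences (13L minus NGM, on the log2 scale) ran from -0.29 to 0.18, and 8 of the 16 were positive and 8 negative, beside 51.6% positive and a median of 0.01 over all probe sets. All 16 of the 95% intervals held 0. Their outermost bounds were -0.80, which is 0.574 of the NGM level, and 0.72, which is 1.65 times that level, and standard errors lay between 0.11 and 0.25 beside a median of 0.12 over all probe sets.

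**Figure D1:**
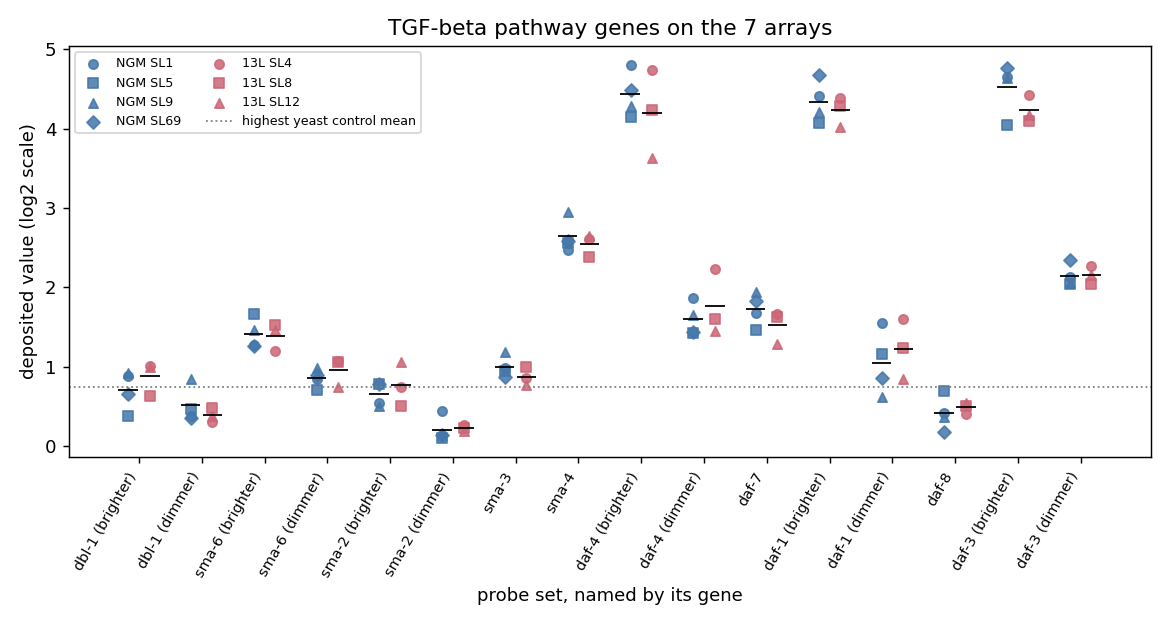
Deposited value (log2 scale) of each of the 16 probe sets of the TGF-beta pathway genes on the 4 NGM arrays (blue) and the 3 arrays of 13L (red), with group means as short lines and the highest mean of a yeast control, 0.74, as a dotted line. The groups overlap on every probe set, and the lowest value of daf-4 on its brighter probe set (3.62) is that of SL12.

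The ligand gene dbl-1, of the BMP-like branch, gave little signal. On its brighter probe set the log2 values on NGM were 0.89 (SL1), 0.37 (SL5), 0.92 (SL9) and 0.66 (SL69), and in 13L they were 1.01 (SL4), 0.62 (SL8) and 1.00 (SL12). SL5 was the lowest of all, and the groups overlapped. The difference was 0.17 with a 95% interval from -0.19 to 0.53 (limma, adjusted p = 0.953). On the dimmer probe set the difference was -0.12 (interval from -0.42 to 0.17), with SL9 alone above the other arrays at 0.85 and the rest between 0.31 and 0.48. The brighter probe set had a mean of 0.78 and the dimmer one of 0.46, while the brightest of 5 probe sets against yeast transcripts, which worms lack, had a mean of 0.74. Values this close to such controls carry little signal over background.

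SMA-6 is the type I receptor of this branch. On its brighter probe set the NGM arrays read 1.27 (SL1), 1.66 (SL5), 1.46 (SL9) and 1.26 (SL69), and the 13L arrays 1.19 (SL4), 1.52 (SL8) and 1.46 (SL12). The 13L mean was 1.39 ± 0.18 (SD, n = 3) and the NGM mean 1.41 ± 0.19 (SD, n = 4), so that the difference of -0.02 was far smaller than the spread between arrays. The interval of that difference ran from -0.32 to 0.27, and the dimmer probe set gave 0.10 (interval from -0.16 to 0.36).

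SMA-2 and SMA-3 are the receptor-regulated Smads that act together with the co-Smad SMA-4. On the brighter probe set of sma-2 the values were 0.54 (SL1), 0.78 (SL5), 0.51 (SL9) and 0.78 (SL69) on NGM, and 0.75 (SL4), 0.50 (SL8) and 1.06 (SL12) in 13L. SL8 and SL12, both 13L, were the lowest and the highest of the 7. The difference of 0.12 (interval from -0.21 to 0.44) thus lay within the spread, and both probe sets of sma-2 had means, 0.70 and 0.21, under the highest yeast control. For sma-3, the NGM values were 0.98 (SL1), 0.94 (SL5), 1.18 (SL9) and 0.87 (SL69), and the 13L values 0.85 (SL4), 0.99 (SL8) and 0.77 (SL12). None of the 13L arrays lay above the unrounded NGM mean of 0.99, but SL8 exceeded 3 of the 4 NGM arrays, and the difference was -0.12 (interval from -0.36 to 0.12). The co-Smad gene sma-4 stood clear of the controls, at 2.47 (SL1), 2.56 (SL5), 2.95 (SL9) and 2.59 (SL69) on NGM and 2.61 (SL4), 2.39 (SL8) and 2.65 (SL12) in 13L. Only SL9 stood apart, above all other arrays, and the difference was -0.09 (interval from -0.39 to 0.21).

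DAF-4, the type II receptor, serves both ligands. Its brighter probe set read 4.81 (SL1), 4.15 (SL5), 4.29 (SL9) and 4.49 (SL69) on NGM and 4.74 (SL4), 4.23 (SL8) and 3.62 (SL12) in 13L. This was the widest range of any probe set of these genes, 1.18 on the log2 scale, and SL12 alone set its lower end. Worms on 13L averaged 4.20 ± 0.56 (SD, n = 3) against 4.43 ± 0.29 (SD, n = 4) for NGM, which differed by -0.23 (interval from -0.80 to 0.33; limma, adjusted p = 0.958). Without SL12 the difference was 0.05. The dimmer probe set of daf-4 differed by 0.16 (interval from -0.27 to 0.60), with SL4 the highest at 2.23.

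The dauer branch begins with daf-7, whose protein is the ligand. Its only probe set read 1.68 (SL1), 1.46 (SL5), 1.95 (SL9) and 1.83 (SL69) on NGM and 1.67 (SL4), 1.62 (SL8) and 1.29 (SL12) in 13L. All 3 arrays of 13L lay below the NGM mean of 1.73, but SL4 and SL8 lay above SL5, so the groups overlapped. The difference was -0.20 ± 0.14 (standard error), with an interval from -0.53 to 0.12 (limma, unadjusted p = 0.188, adjusted p = 0.944). For daf-1, the type I receptor gene of this branch, the brighter probe set read 4.41 (SL1), 4.07 (SL5), 4.21 (SL9) and 4.67 (SL69) on NGM and 4.39 (SL4), 4.29 (SL8) and 4.02 (SL12) in 13L. SL69 was the highest and SL12 the lowest, and the difference was -0.11 (interval from -0.46 to 0.24). The dimmer probe set of daf-1 read 1.55 (SL1), 1.16 (SL5), 0.61 (SL9) and 0.85 (SL69) on NGM and 1.60 (SL4), 1.23 (SL8) and 0.85 (SL12) in 13L, and differed by 0.18 in the other direction (interval from -0.36 to 0.72). Both diets covered nearly the same range there, with SL1 and SL4 high and SL9 low.

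Among the Smads of the dauer branch, daf-8 encodes a receptor-regulated Smad. It gave 0.42 (SL1), 0.69 (SL5), 0.37 (SL9) and 0.17 (SL69) on NGM and 0.41 (SL4), 0.51 (SL8) and 0.55 (SL12) in 13L. The 13L values lay inside the NGM range, and the mean of 0.44 was under the highest yeast control, so this probe set says little about daf-8 (difference 0.07, interval from -0.21 to 0.36). The co-Smad gene daf-3 had a brighter probe set at 4.65 (SL1), 4.04 (SL5), 4.63 (SL9) and 4.77 (SL69) on NGM and at 4.43 (SL4), 4.10 (SL8) and 4.18 (SL12) in 13L. SL5 was the lowest of all, and the other NGM arrays lay above every array of 13L. The 13L mean was 4.23 ± 0.17 (SD, n = 3) and the NGM mean 4.52 ± 0.33 (SD, n = 4), which differed by -0.29 (standard error 0.17, interval from -0.68 to 0.11), which is the largest in size among these genes. With SL5 left out the difference was -0.45 (interval from -0.72 to -0.17; limma, unadjusted p = 0.00542, adjusted p = 0.928), and 5.27% of all probe sets then had an unadjusted p under 0.05. As SL5 was the lowest array, leaving it out could only make this difference larger in size. The difference was -0.21 without SL69 and -0.10 without SL1 and SL69 (limma, unadjusted p = 0.284 and 0.611). As SL1 and SL69 were the highest NGM arrays of this probe set, leaving them out could only raise the difference. On its dimmer probe set, where SL69 was the highest at 2.34 and SL8 the lowest at 2.04, daf-3 averaged 2.15 ± 0.12 (SD, n = 3) for 13L against 2.14 ± 0.14 (SD, n = 4) for NGM, which differed by 0.01 (interval from -0.23 to 0.26).

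**Figure D2:**
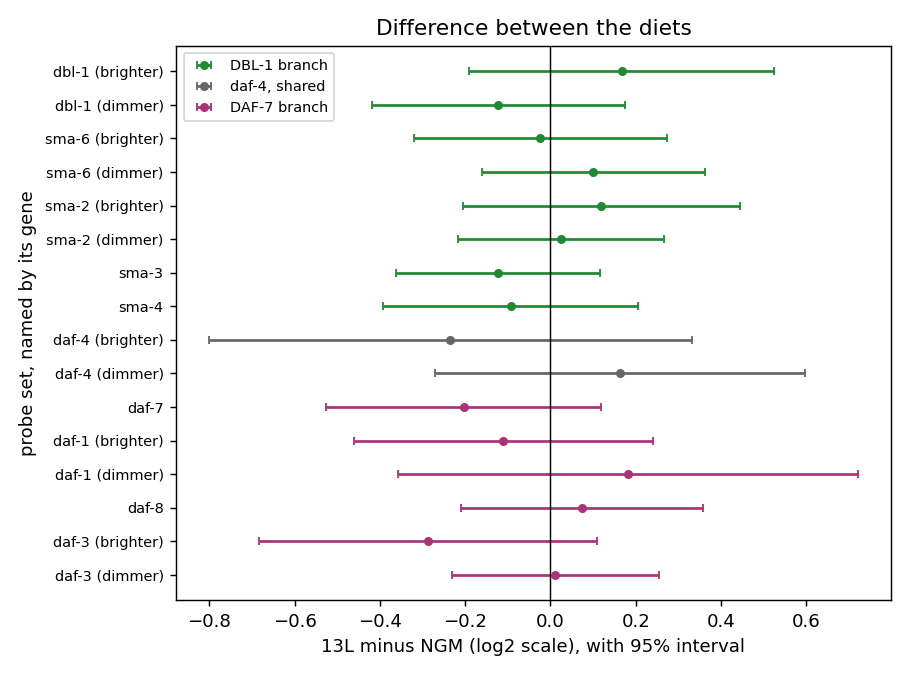
Difference between 13L and NGM (log2 scale, points) with its 95% interval from limma (bars) for each of the 16 probe sets, with the DBL-1 branch in green, daf-4 in grey and the DAF-7 branch in purple. All 16 intervals hold 0, and the points run from -0.29 (daf-3, brighter) to 0.18 (daf-1, dimmer).

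Probe sets of 1 gene often disagreed in sign. Of the 6 genes with 2 probe sets, 5 had one above and one below 0, namely dbl-1, sma-6, daf-4, daf-1 and daf-3, and only both probe sets of sma-2 were on the same side (0.12 and 0.02). Across the 7 arrays, the probe sets of daf-4 had the highest correlation of these, with r = 0.69 (exact permutation p = 0.0929, adjusted over 6 genes 0.557) and rho = 0.68 (exact permutation p = 0.110, adjusted 0.329). For dbl-1 the correlation was r = -0.0081 (exact permutation p = 0.987) and rho = -0.39 (exact permutation p = 0.396). For 5 of these 6 genes the direction read therefore depended on which probe set was taken, while every interval of these differences held 0. How often signs disagree over all genes with 2 probe sets was not computed.

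The branches were set beside each other on the brighter probe set of each gene, with daf-4 kept apart since it belongs to both. Of the 5 genes in the DBL-1 branch 2 lay above 0 (median difference -0.02), and of the 4 in the DAF-7 branch 1 did (median difference -0.16), beside a median of 0.01 over all probe sets. The median of the DAF-7 branch was -0.044 without SL12 and -0.25 without SL5. For each array, the value of each gene minus its mean over the 7 arrays was averaged over the branch. The DBL-1 branch gave -0.06 (SL1), -0.02 (SL5), 0.12 (SL9) and -0.06 (SL69) on NGM and -0.0031 (SL4), -0.08 (SL8) and 0.10 (SL12) in 13L. Both diets thus spanned almost the same range, with SL9 and SL12 highest. The DAF-7 branch gave 0.09 (SL1), -0.13 (SL5), 0.09 (SL9) and 0.17 (SL69) on NGM and 0.03 (SL4), -0.07 (SL8) and -0.19 (SL12) in 13L. SL12 was the lowest and SL69 the highest, yet SL5 lay below both SL4 and SL8.

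Subtracting one from the other, the DBL-1 branch minus the DAF-7 branch stood at 0.08 ± 0.18 (SD, n = 3) for 13L and at -0.06 ± 0.15 (SD, n = 4) for NGM. These means differed by 0.14 and the medians of the branches by 0.13, and neither difference was tested. The distance between the medians was 0.30 without SL5, 0.31 without SL4 and -0.10 without SL1 and SL69. Neither its size nor its sign was therefore stable. For the array means of this distance, SL5 was the highest NGM array, SL4 the lowest of 13L, and SL1 and SL69 the lowest on NGM. Each omission could thus only move the mean distance in the direction seen. Over all probe sets rather than 1 per gene, 4 of 8 in the DBL-1 branch and 3 of 6 in the DAF-7 branch were positive, with medians of 0.00048 and -0.05.

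**Figure D3:**
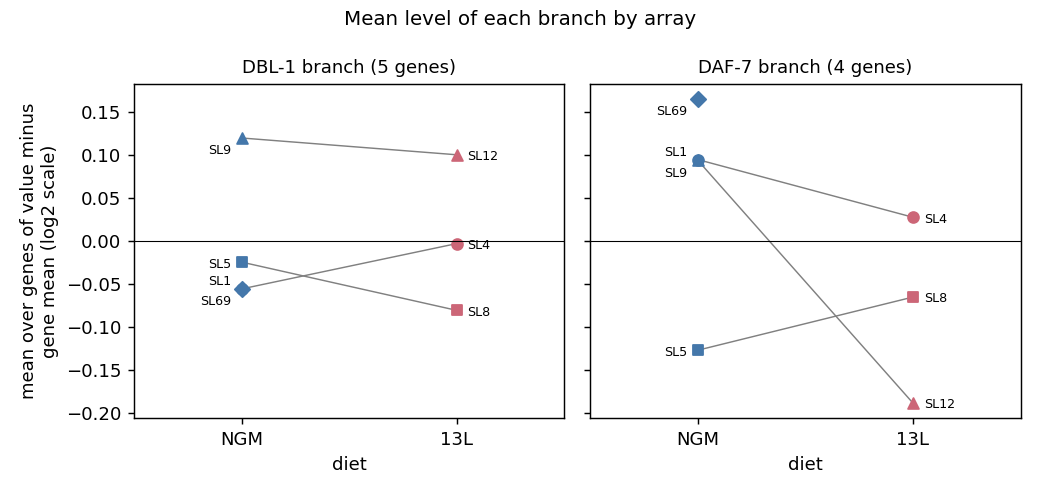
Mean level of each branch on each array (mean over its genes of the log2 value minus the gene's mean), on NGM (blue) and in 13L (red), with lines between arrays of the same run of title numbers. In the DBL-1 branch the lines rise and fall by at most 0.06, and in the DAF-7 branch the line from SL9 to SL12 falls by 0.28 while that from SL5 to SL8 rises by 0.06.

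By the numbers in their titles, SL4 runs on from SL1, SL8 from SL5 and SL12 from SL9, though no source calls such a run a batch. On the brighter probe set of dbl-1 the differences within these pairs were 0.12, 0.25 and 0.08, and on the dimmer one -0.06, 0.01 and -0.47. It was 1 of 2 genes whose brighter or only probe set moved the same way in all 3 pairs, and the share of all genes that do so was not computed. The other, sma-6, had -0.08, -0.14 and -0.0048. For daf-3 the same differences were -0.22, 0.06 and -0.46, and for daf-7 they were -0.01, 0.16 and -0.66, so the last pair was the only one with a sizeable fall in daf-7. The difference of daf-7 was -0.084 without SL12. With the runs as blocks, 0 of 16 probe sets had an unadjusted p under 0.05, while 1777 of all probe sets had one. The lowest p of a member was then 0.129 (limma, adjusted p = 0.734), for daf-3 at -0.21.

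Across the 7 arrays, 45 pairs of these genes were compared, and none passed after adjustment. The share of other gene pairs on these arrays under a given p was not computed. At an unadjusted p under 0.05 there were 6 of these 45 pairs by Pearson's r. The highest in size was daf-8 with daf-3, the receptor-regulated Smad and the co-Smad of the dauer branch, at r = -0.89 (exact permutation p = 0.00258, adjusted over 45 pairs 0.116) and rho = -0.86 (exact permutation p = 0.0238, adjusted 0.268), and r was -0.88 without the 2 arrays farthest from the median of daf-8. The next by p was sma-2 with sma-3, the paired Smads of the DBL-1 branch, at r = -0.84 (exact permutation p = 0.0167, adjusted 0.283) and rho = -0.86 (exact permutation p = 0.0238, adjusted 0.268), with r = -0.83 without the 2 arrays farthest out for sma-2. Since daf-8 and sma-2 lay under the highest yeast control, these relations rest on dim values. Signs were mixed, with 7 of 10 pairs positive within the DBL-1 branch (median r = 0.03), 3 of 6 within the DAF-7 branch (median r = -0.05) and 9 of 20 between the branches (median r = -0.06).

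Other genes of the pathways were taken from lists of further ligands and Smads, of modulators and of downstream genes. Of the 37 measured genes of these lists, 0 passed an adjusted p under 0.05 from limma. At an unadjusted p under 0.05 there was 1 of 37, beside 5.11% of all probe sets, namely daf-14, which encodes the second receptor-regulated Smad of the dauer branch. Its brighter probe set read 2.60 (SL1), 2.27 (SL5), 2.46 (SL9) and 2.93 (SL69) on NGM and 2.42 (SL4), 2.01 (SL8) and 2.11 (SL12) in 13L. SL69 was the highest, SL8 and SL12 lay below every NGM array, and SL4 lay above SL5. The difference was -0.39 (limma, unadjusted p = 0.0452, adjusted p = 0.944), with -0.18, -0.26 and -0.35 within the pairs of title numbers, and it was -0.18 without SL1 and SL69 (unadjusted p = 0.264) and -0.17 on the dimmer probe set. Its unadjusted p also rose to between 0.0501 and 0.157 without any 1 of SL1, SL9, SL69, SL8 and SL12. SL1 and SL69 were the highest NGM arrays of daf-14, so leaving both out could only raise its difference. The ligand genes tig-2 and unc-129, the latter known for guiding motor axons, differed by 0.19 and -0.29, and neither passed the test. Each rested on 1 array, since tig-2 was at -0.025 without SL8 and unc-129 at -0.0014 without SL69.

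Modulators of DBL-1 signalling, 10 measured of 12, had 4 positive and 6 negative differences (median -0.15), and at an unadjusted p under 0.05 the count was 0. Highest in moderated t were mab-31, a nuclear component of the pathway, at -0.28 (limma, adjusted p = 0.944), sma-9, a Schnurri-type zinc finger cofactor of the Smads, at -0.25, and drag-1, which encodes a repulsive guidance molecule that acts as a co-receptor, at 0.14, with a mean under the highest yeast control. For sma-9 the difference shrank to -0.02 without SL1 and SL69. On the dimmer probe sets mab-31 differed by 0.03 and sma-9 by -0.08. Among the 10 modulators of DAF-7 signalling 3 were positive and 7 negative (median -0.09), again with a count of 0 at that p, and 5 of the 10 had means at or under the highest yeast control. Highest in moderated t here was the adaptor gene soc-1 at -0.26, followed by bra-1, whose product binds the DAF-1 receptor, at -0.32 and by daf-5, the Sno/Ski partner of DAF-3, at -0.25. These were -0.13, -0.10 and -0.02 without SL1 and SL69. For these genes, and for sma-9, SL1 and SL69 were the highest NGM arrays, so leaving them out could only raise the differences. The dimmer probe sets of daf-5 differed by -0.16 and 0.07. With the runs of title numbers as blocks, daf-14, bra-1 and daf-36 of these lists had unadjusted p-values under 0.05 (limma, 0.031, 0.0194 and 0.035), where 7.88% of all probe sets had one, a share close to that of 3 in 37.

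Downstream genes gave no call either. Of 9 measured genes known to lie downstream of DBL-1, 5 were positive, with a median of 0.01. The desaturase gene fat-6 differed by 0.24, and the cuticle collagen genes rol-6 and col-41 by -0.13 and -0.12, the latter being at 0.011 without SL4. Of 4 genes of the steroid hormone step downstream of DAF-7, 3 were positive, with a median of 0.11. Among them, daf-36 and daf-9, which encode enzymes of dafachronic acid synthesis, differed by 0.22 (limma, unadjusted p = 0.0679, adjusted p = 0.944) and 0.20, and din-1, a corepressor of the receptor DAF-12, by -0.10, and by 0.06 without SL1. The dauer cuticle genes col-2, col-40 and cut-1 differed by -0.04, -0.16 and 0.10, and col-2 by 0.18 without SL5.

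**Figure D4:**
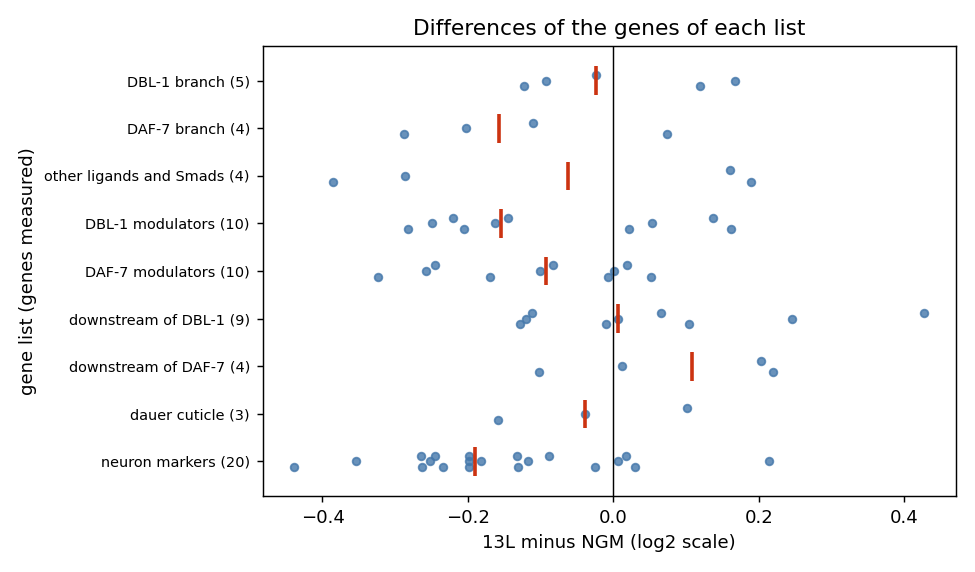
Difference between 13L and NGM (log2 scale) of each measured gene (points, on its brightest probe set) in the lists of TGF-beta pathway genes and in the neuron markers, with the median of each list as a red line. The median is -0.02 for the DBL-1 branch, -0.16 for the DAF-7 branch and -0.19 for the 20 neuron markers.

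Neuron markers were read beside these genes, because both ligands are made by neurons. Of 20 markers 4 had a positive and 16 a negative difference, with a median of -0.19, where 51.6% of all probe sets were positive. At an unadjusted p under 0.05 there were 3 of 20, beside 5.11% of all, namely unc-31 (-0.35), egl-21 (-0.25) and cha-1 (-0.24), and all 3 were lower. The mean of unc-31 over the arrays lay under the highest yeast control, and the dimmer probe set of cha-1 differed by 0.02. With the replicate block 1 of 20 had an unadjusted p under 0.05, beside 7.88% of all, since egl-21 was then at 0.0582 and cha-1 at 0.0823 (limma). The mean log2 level of the 20 neuron markers was 2.09 on each 13L array and lay between 2.11 and 2.41 on the NGM arrays, with SL1 and SL69 above the rest, and 3 of the 20 had means at or under the highest yeast control. Without SL1 and SL69 the median was -0.06 for the neuron markers, -0.07 for the DAF-7 branch and -0.17 for the DBL-1 branch. SL1 and SL69 were the highest NGM arrays for the neuron markers and the DAF-7 branch, so leaving them out could only raise the mean differences of these lists. For the DBL-1 branch they were the lowest NGM arrays, so there it could only lower it. Hypodermis markers, for the tissue in which the DBL-1 branch acts on body size, had 6 positive and 8 negative differences (median -0.07). Of these, 1 of 14 had an unadjusted p under 0.05, beside 5.11% of all. It was mlt-10, which was higher by 0.40 with groups that did not overlap. On the dimmer probe set mlt-10 differed by -0.14, and the groups overlapped. Next in moderated t were dpy-3 at -0.26 and dpy-7 at -0.31, which were at 0.051 and 0.0082 without SL1 and SL69, the highest NGM arrays of both genes. Embryo markers had 3 positive and 7 negative differences with a median of -0.06. They too were highest on SL1 and SL69, with list means of 0.21 and 0.26 above the mean of all arrays. Their median was 0.047 without these arrays, an omission that could likewise only raise their mean difference. The part of neuron, hypodermis or embryo RNA in the values of the pathway genes was not tested.

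The labelled stage was checked on 12 genes of adult hermaphrodites (vitellogenins, the yolk receptor, eggshell and oocyte genes). All 12 lay above the yeast controls, with mean log2 levels over the list between 8.72 and 9.01 on every array. Differences were positive for 6 and negative for 6 (median 0.01). At an unadjusted p under 0.05 there was 1 of 12, beside 5.11% of all probe sets. It was oma-1, higher by 0.27 with groups that did not overlap. With the replicate block there were 2 of 12, beside 7.88% of all. These were oma-1 and oma-2, both higher (limma, unadjusted p = 0.0316 and 0.0139, adjusted p = 0.603 and 0.550). Without the block, the dimmer probe set of oma-2 differed by 0.05. Finer differences in stage between arrays are not seen by such a check. Sperm markers differed between arrays of the same diet, by list means from 1.15 to 2.27 on NGM and from 1.32 to 2.43 in 13L. These list means were lowest on SL1 and SL4. The widest spread was that of msp-3, from 3.24 (SL1) to 8.09 (SL5) on NGM and from 5.16 (SL4) to 8.24 (SL12) in 13L. Array medians lay between 1.01 and 1.06, and correlations between arrays over all probe sets between 0.982 and 0.995.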

How the data were processed

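RNA from whole worms was hybridised to 1 Affymetrix C. elegans Genome Array per sample. Background correction by RMA and quantile normalization were done by the authors, whose deposited values were read as log2, the scale that RMA returns. Neither base nor offset is stated, so each fold rests on that reading. RMA and limma are the tools named in the submitters' processing notes, with versions not given in the sources used here. No scanner files were used. The labels do not say whether replicates came from separate cultures, while the methods call them biological replicates.

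Of 22625 probe sets, 77 are Affymetrix controls and 22548 were tested. Names came from the platform annotation and were updated through RefSeq's table for WBcel235. Of these, 20766 had 1 gene, 887 several and 895 none, and those with several were given to no gene. The brightest probe set stood for a gene. All were fitted in R 4.3.3 with limma 3.58.1, and two-sided p-values of its moderated test were adjusted by Benjamini-Hochberg (threshold 0.05). The procedure was tested on simulated data. Correlations were tested over all 5040 orders of the arrays. Such a test treats the arrays as exchangeable, which arrays of both diets and of shared runs of title numbers need not be.

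Members and lists were chosen with earlier results of these data known. Named genes are the 10 members and, of each pathway list, the dauer genes and the neuron and hypodermis markers, the 3 with the highest moderated t in size. Of the adult markers oma-1 and oma-2 are named for their p-values, and of the sperm markers msp-3 for its spread. No embryo marker is named. Not measured by a probe set of their own were tig-3, crm-1, tsp-21 and spp-9 of the pathway lists, and col-6 of the dauer genes. Arrays of the same run of title numbers deviated together from their group means (r = 0.529 for SL1 with SL4, 0.156 for SL5 with SL8 and 0.537 for SL9 with SL12, over probe sets). As SL69 has no partner, the blocked fit rests on the 3 pairs. The fit without SL1 and SL69 was also planned, and its use on the other lists and the markers was added after the data were seen. It leaves SL5 and SL9 as the only NGM arrays. Where SL1 and SL69 were the highest NGM arrays of a gene, this fit could only raise the difference of that gene.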

Additional observations from a re-analysis of the deposited data

Results flagged for a closer look

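On the dimmer probe set of sma-2, SL1 lay far from the other NGM arrays, at a log2 value of 0.44 where the others lay between 0.10 and 0.13. The gap took 0.887 of the range of the group. How often a gap of this size arises by chance in a group of 4 was not computed, and 16 probe sets were looked at. The mean of this probe set, 0.21, is under that of the highest yeast control, 0.74.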

How the results depend on the processing

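The alternatives were each array left out, SL1 and SL69 left out, the replicate block by runs of title numbers, cyclic loess, centring on medians, weights per array, a robust trended variance, bright probe sets alone (those above the median level), no shared (_s_at or _x_at) probe sets, and probe sets averaged within a gene. In all 16 of them 0 probe sets passed an adjusted p under 0.05. The number of member probe sets at an unadjusted p under 0.05 lay between 0 and 1 with 1 array left out, the 1 being daf-3 without SL5. Also with 1 array left out, the median of the DBL-1 branch lay between -0.076 and 0.076, that of the DAF-7 branch between -0.25 and -0.044, and the branch difference (DBL-1 minus DAF-7) between -0.014 and 0.31. Without SL1 and SL69 the DBL-1 median was -0.17 and the branch difference -0.10. Without shared probe sets the DBL-1 median was -0.093. The differences of dbl-1, sma-3, daf-7 and daf-3 kept their sign under every alternative in which the gene was measured. With 1 array left out, sma-6 ran from -0.089 to 0.076, sma-2 from -0.026 to 0.25, sma-4 from -0.15 to 0.010, daf-4 from -0.50 to 0.052 and daf-8 from -0.0062 to 0.17. Without SL1 and SL69, daf-1 turned to 0.090 and daf-8 to -0.042, with the replicate block daf-8 turned to -0.0062, and with probe sets averaged sma-6 turned to 0.038 and daf-1 to 0.036. The cause was not tested. Without shared probe sets dbl-1 and sma-2 had none left, and the bright probe sets held none of dbl-1, sma-2, sma-3 or daf-8. The number of arrays limits the precision, and the 4 member probe sets at or under the highest yeast control carry little signal.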
